A study of Mus musculus with 14 samples.

Results

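The effect of a RIG-I agonist on the transcriptome was compared between 2 mouse tumour cell lines, as the effect in CT26 cells minus the effect in E0771 cells. The comparison took 10 of the 14 libraries of the study, all those of CT26 and E0771, and 15274 genes could be tested in them. The groups were CT26 with RIG-I agonist (3 libraries), CT26 with control agonist (3 libraries), E0771 with RIG-I agonist (2 libraries) and E0771 with control agonist (2 libraries). CT26 is a colorectal carcinoma line of the BALB/c strain, and E0771 is a mammary carcinoma line of the C57BL6 strain. In every group 100000 cells were plated per well, the agonist or control agonist was given at 0.5 ug/ml, and RNA was taken after 24 h. Each line is a single established line, so the line, its strain and its tissue of origin cannot be told apart, and no untreated cells were analysed here. The labels do not say whether the libraries of a group came from separate cultures, so a p-value here takes in the spread among libraries, which may be technical. The study asks what activation of RIG-I within tumour cells does, and the comparison asks which genes answered the same agonist differently in the 2 lines.

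RIG-I is a cytosolic receptor for RNA with features of viral genomes. Bound RNA makes it signal through the adaptor MAVS to the kinases that activate IRF3 and NF-kB, and cells then make type I interferon. Secreted interferon acts back on the same and neighbouring cells through the interferon receptor, and this feedback turns on a large set of interferon-stimulated genes. Many tumour lines hold some of these genes at a raised level before any stimulus, and a fold change measured from such a level is smaller even where the level reached is the same.

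A difference of effects on the log2 scale can be split exactly into 2 gaps between the lines. The agonist gap is the log2 level in CT26 with RIG-I agonist minus that in E0771 with RIG-I agonist, and the control gap is the same between the control agonist groups. The difference of effects is the agonist gap minus the control gap. The 2 gaps share no library, and neither do the 2 effects, but the difference shares its libraries with all of them. Counts of genes by gap are therefore descriptions of where a difference lies. A gap was counted when its adjusted p was under 0.05 and its size at least 1 on the log2 scale, which is 2-fold.

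Library totals were 32826537 to 40563960 counts in CT26 and 12413267 to 13399165 counts in E0771. A count of 0 therefore allows up to 0.074 to 0.091 counts-per-million (CPM) in a CT26 library and 0.224 to 0.242 CPM in an E0771 library. The E0771 libraries varied more among themselves: the biological coefficient of variation was 0.102 in CT26 fitted alone and 0.202 in E0771 alone, and 0.143 in the joint fit. Both lines lacked the defining epithelial markers Epcam, at most 0.15 CPM in any library, and Cdh1, at most 0.556 CPM. Krt8 was at 0.133 to 0.327 CPM in CT26 and at 199 to 269 CPM in E0771, while Krt18 was at 15.7 to 26 CPM in CT26 and at 0 in E0771. Among the intestinal markers reported here, Cdh17 (1.6 to 6.25 CPM) and Lgals4 (0.955 to 1.17 CPM) reached 1 CPM in CT26, while Cdx1 was at 0 and Cdx2, Vil1 and Lgr5 were at most 0.401 CPM. Of 13 mammary markers, 2 reached 1 CPM in E0771, Esr1 (0.906 to 3 CPM) and Foxa1 (0.715 to 2.25 CPM), while Krt5 and Pgr were at 0; in CT26 5 reached it, and the list summed to 53.2 to 64 CPM, against 2.64 to 4.88 CPM in E0771. Of 18 leukocyte markers, 2 reached 1 CPM in CT26, Cd14 (20.6 to 26.8 CPM) and Cd68 (2.86 to 4.09 CPM), and 4 did in E0771, Cd68, Lyz2, S100a8 and Cd14 (at most 10.9, 9.21, 2.19 and 2.11 CPM). Their sum was 32.4 to 33.7 CPM in CT26 with RIG-I agonist and 24.9 to 27.5 CPM with control agonist, against 13 to 19.9 CPM in E0771 with RIG-I agonist and 16.7 to 21.7 CPM with control agonist; their part in the results was not tested. The pan-leukocyte marker Ptprc was at most 0.464 CPM and Adgre1 at 0 in every library.

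A smaller effect in CT26 was more common than a larger one. The difference of effects was called for 245 genes by edgeR's quasi-likelihood test with Benjamini-Hochberg adjustment: 73 had a larger (or less negative) effect in CT26, 0.478% of the genes tested, and 172 had a smaller one, 1.13%. At 2-fold or more these were 50 genes (0.327%) and 116 genes (0.759%). With the replicate number as a block within each line, 521 and 682 genes were called, among them 233 of the 245. Called effects within a line were more frequent: 9.45% of genes were higher and 6.87% lower with RIG-I agonist in CT26, and 4.41% were higher and 2.84% lower in E0771. CT26 had more and deeper libraries and a smaller spread, so these shares do not compare the responses of the lines. By voom with a spread per group, 2625 genes were higher and 2416 lower in CT26, against 360 and 62 in E0771. The median difference over all genes tested was 0.02.

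The number of calls moved with single libraries. A fit without 1 E0771 library leaves 1 library in that group, so the group then adds nothing to the measured spread. Calls gained or lost in such a fit, here and below, are descriptions only. Leaving out RIG-I agonist replicate 1, 2 or 3 of CT26 left 28, 24 and 39 larger effects, and leaving out its control agonist replicate 1, 2 or 3 left 44, 28 and 40. Without RIG-I agonist replicate 1 or 2 of E0771, 117 and 122 genes had a larger effect in CT26. Smaller effects numbered 104 and 102 without CT26 RIG-I agonist replicate 1 or 2 and 283 without E0771 RIG-I agonist replicate 1. A total of 109 genes, 21 larger and 88 smaller, were called without each of the 10 libraries in turn, and 75 of them, 16 larger and 59 smaller, also with a spread of its own per group and with the replicate block.

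The genes of the 2 directions were also split by the effect called in each line. The effects share their libraries with the difference, so much of this split follows from its sign. An effect called in 1 line only is not shown to be absent in the other. Of the 172 genes with a smaller effect in CT26, 96 were called higher with RIG-I agonist in both lines, 34 higher in E0771 only, 31 lower in CT26 only, and 10 lower in CT26 and higher in E0771. Of the 73 with a larger effect, 49 were called higher in CT26 only, 16 lower in E0771 only, 5 higher in both lines, 1 lower in both, and 2 higher in CT26 and lower in E0771. Over the 467 genes called higher in both lines the effects were alike in rank, with a Spearman's rho of 0.86 across genes (Pearson's r 0.65), and the median effect was 1.45 in CT26 and 2.06 in E0771. Genes are not independent replicates, and these correlations are a description.

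**Figure D1:**
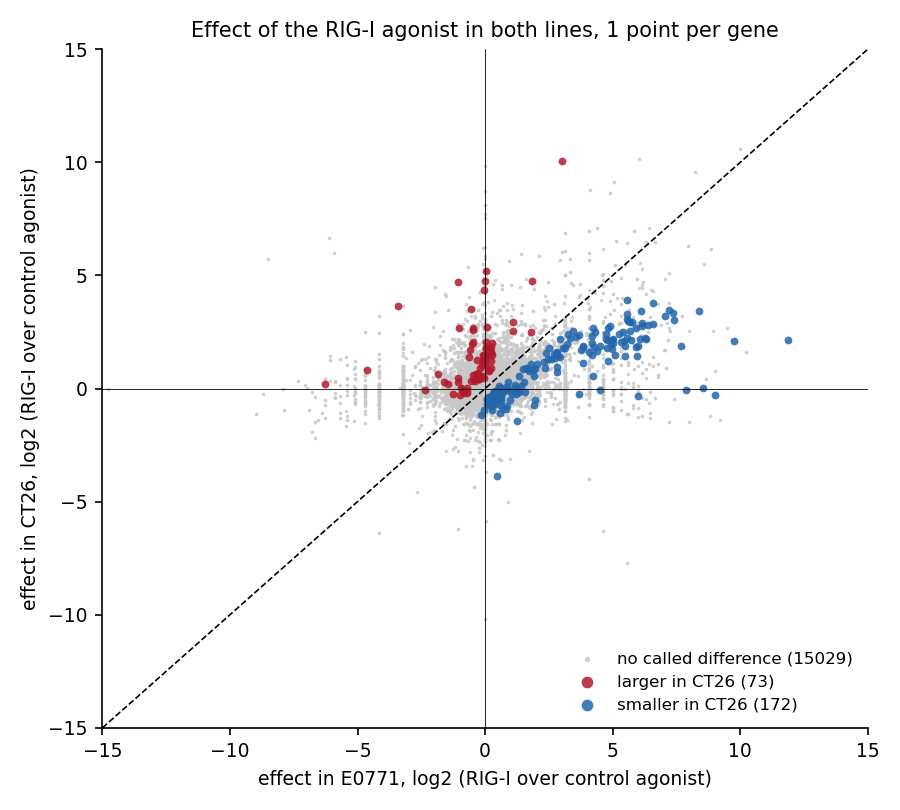
Effect of the RIG-I agonist in CT26 (vertical axis) against the effect in E0771 (horizontal axis), log2 against control agonist, with 1 point per gene tested. The dashed line marks equal effects; the 172 genes with a smaller effect in CT26 lie below it and the 73 with a larger effect above it.

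Most of the smaller effects lay in genes that CT26 already held at a higher level with control agonist. Among the 172 genes, 121 (70.3%) stood at least 2-fold higher in CT26 than in E0771 with control agonist and had a gap that counted; over all genes tested the share was 21.1%. The difference is computed from the same control libraries, so part of this excess is built in. For 56 of the 172 the agonist gap did not count, that is, it was under 2-fold or not past the test. Such a gap is called closed, although a smaller gap can remain. Their median control gap was 1.68 and their median agonist gap 0.44, and for 41 of them the 95% interval of the agonist gap lay within 1 of 0. In 64 more the gap stayed in favour of CT26 but narrowed, with a median agonist gap of 1.99 against a median control gap of 4.71. Together 120 of 172 (69.8%) had a control gap that closed or narrowed. The replicate block gave 287 such genes. Leaving out 1 library gave 83 to 169, and 72 were called without each library in turn.

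A gap that opened or widened with the agonist took a smaller share of the smaller effects than of the larger ones. In 19 of 172 genes with a smaller effect (11.0%) a gap in favour of E0771 opened or widened with RIG-I agonist. In 9 the agonist gap alone counted, and in 10 a control gap in favour of E0771 widened. A gap is called opened where the control gap did not count, although a smaller control gap can be present. Daam1, for example, had a control gap of -0.85 (adjusted p = 7.51e-05, edgeR) and an agonist gap of -2.01. Among the 73 larger effects, 30 (41.1%) were of the matching kind, in which a gap in favour of CT26 opened (21 genes) or widened (9 genes). A further 27 (37.0%) began lower in CT26 with control agonist and closed the gap (12 genes) or narrowed it (15 genes). The count of 30 was 160 with the replicate block, and 9 to 48 when 1 library was left out.

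**Figure D2:**
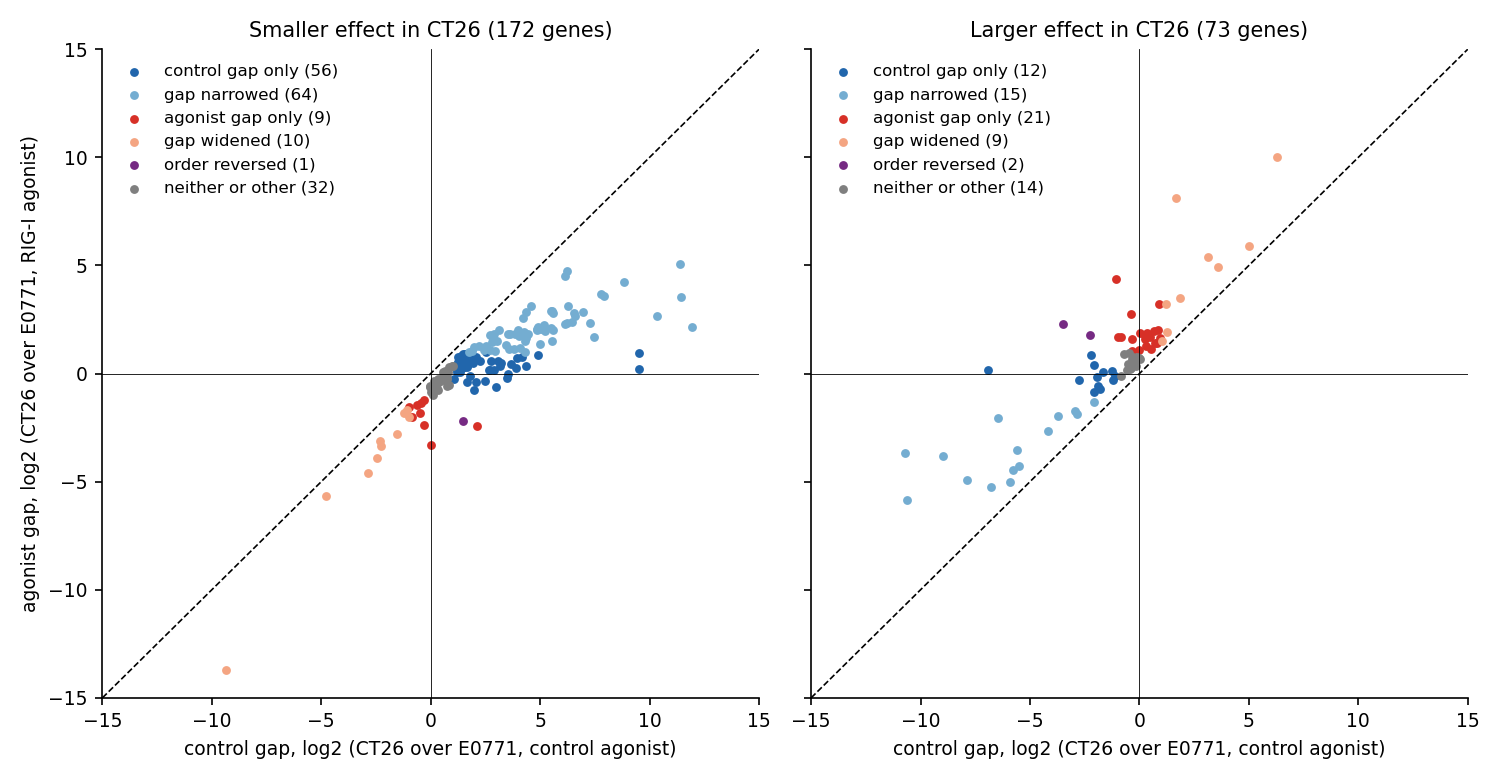
Agonist gap (vertical axis) against control gap (horizontal axis), log2 of CT26 over E0771, for the 172 genes with a smaller effect in CT26 (left) and the 73 with a larger effect (right). On the dashed line the gap is equal with both agonists; the genes on the left lie mainly at a positive control gap, and those on the right on both sides of 0.

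Over the 467 genes called higher in both lines, the SD of the gap was 1.75 with RIG-I agonist and 2.76 with control agonist. Over all genes tested it was 3.0 with RIG-I agonist and 3.1 with control agonist. The 467 were chosen from these same libraries for a control level below the RIG-I agonist level, so part of the wider control gap may be built in, and no test is given. The median gap was 0.43 with RIG-I agonist and 1.06 with control agonist, and CT26 had the higher control agonist level in 346 of them. Of the 467, 5 had a larger effect in CT26 and 96 a smaller one. Across all genes tested the share with a counted gap was similar with both agonists: CT26 stood above E0771 in 22.5% with RIG-I agonist and 21.1% with control agonist, and below it in 15.2% and 15.8%.

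**Figure D3:**
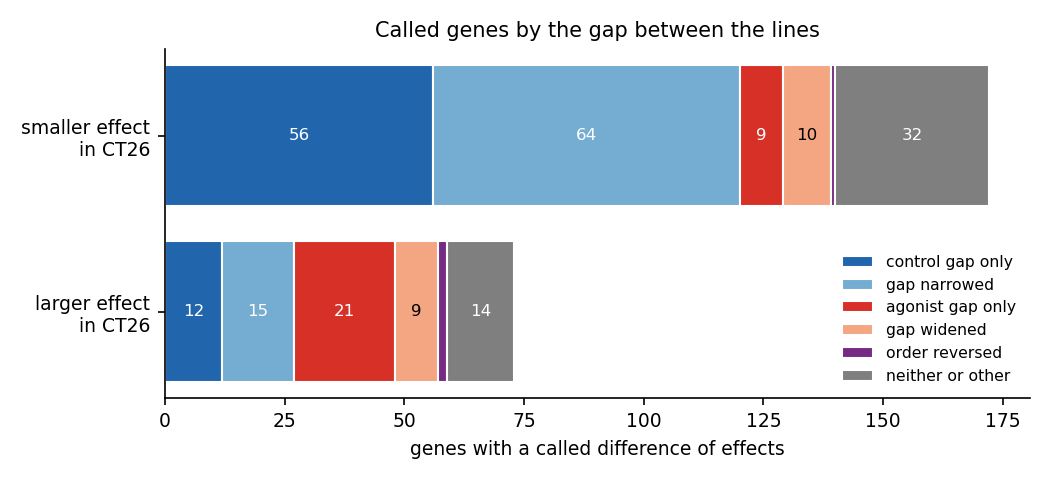
Number of genes (horizontal axis) with a smaller and with a larger effect of the RIG-I agonist in CT26, split by which gap between the lines counted. Closed and narrowed control gaps make up 120 of the 172 smaller effects; opened and widened gaps make up 30 of the 73 larger ones.

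The promoters of the genes on which the pattern rests were examined for the interferon-stimulated response element and for kappaB and AP-1 sites. Promoters, from 250 bases before to 50 after the start, come from RefSeq on the GRCm38.p6 build, and a single promoter was matched for 8438 of the genes tested. The interferon-stimulated response element was searched as GAAANNGAAA, the kappaB site as GGGANNTTCC and the AP-1 site as TGANTCA, each on both strands. The response element was found in 28 of 89 promoters of genes with a smaller effect in CT26 (31.5%), in 13 of 25 of those whose gap closed (52%) and in 12 of 34 of those whose gap narrowed (35.3%). It was found in 3.5% of all promoters and in none of 30 promoters of genes with a larger effect, which with so few promoters is near the share of all. Genes higher in both lines, from which most of the smaller effects come, held it in 65 of 270 promoters (24.1%). The AP-1 site was found in 10.1% of the promoters of smaller effects against 5.24% of all, and in 11.9% of those of genes higher in both lines. The kappaB site was found in 3 of 89 promoters of smaller effects (3.37%), in 1.48% of all and in 4.44% of those of genes higher in both lines. A match is a description of letters, not of binding.

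4 promoters are shown, 5′ to 3′ on the strand of the gene, with every match to these motifs in capitals. Ifit1 and Ddx60 stand for a gap that closed, and each holds the response element 2 times. Isg15 stands for a gap that narrowed, with 3 overlapping matches to the response element. Cxcl10 had no called difference and holds 1 response element, 1 kappaB and 1 AP-1 match.
Ifit1, chr19:34640639-34640938, plus strand: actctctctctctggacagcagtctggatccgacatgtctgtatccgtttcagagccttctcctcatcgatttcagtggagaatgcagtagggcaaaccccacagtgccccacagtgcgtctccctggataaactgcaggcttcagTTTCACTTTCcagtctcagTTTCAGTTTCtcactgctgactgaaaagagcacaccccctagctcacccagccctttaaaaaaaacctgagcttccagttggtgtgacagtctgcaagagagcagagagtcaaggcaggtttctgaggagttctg
Ddx60, chr8:61927837-61928136, plus strand: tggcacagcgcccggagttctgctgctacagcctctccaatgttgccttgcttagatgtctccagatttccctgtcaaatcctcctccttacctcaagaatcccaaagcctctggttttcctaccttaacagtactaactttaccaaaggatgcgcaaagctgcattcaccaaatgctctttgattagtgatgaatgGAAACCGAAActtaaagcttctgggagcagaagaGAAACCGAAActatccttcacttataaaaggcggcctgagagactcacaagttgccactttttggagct
Isg15, chr4:156200769-156201068, minus strand: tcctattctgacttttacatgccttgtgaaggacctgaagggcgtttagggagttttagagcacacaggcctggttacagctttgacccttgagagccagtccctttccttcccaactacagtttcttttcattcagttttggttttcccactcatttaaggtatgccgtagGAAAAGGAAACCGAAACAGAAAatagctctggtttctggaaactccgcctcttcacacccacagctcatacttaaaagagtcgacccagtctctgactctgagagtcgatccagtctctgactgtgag
Cxcl10, chr5:92348840-92349139, minus strand: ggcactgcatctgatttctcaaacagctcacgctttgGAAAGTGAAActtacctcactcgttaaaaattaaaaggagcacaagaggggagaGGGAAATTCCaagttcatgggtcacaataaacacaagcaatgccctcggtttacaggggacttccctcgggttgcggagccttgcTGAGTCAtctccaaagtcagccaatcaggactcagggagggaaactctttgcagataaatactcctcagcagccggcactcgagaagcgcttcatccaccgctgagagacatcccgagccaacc

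Antiviral effector genes, the proteins that block steps of viral replication, had a smaller effect in CT26 for close to 1 member in 2. Of 66 tested members of the list, 60 were called higher with RIG-I agonist in CT26 and 60 in E0771, against 9.45% and 4.41% of all genes tested. The effect was smaller in CT26 for 31 of the 66 and larger for 1, Daxx, against 1.13% and 0.478% of all genes. The median difference was -1.24 against 0.02 over all genes, and it lay below 0 in 61 of 66 members (92.4%) against 47.6% of all genes. The median level of a member was 230 CPM in CT26 with RIG-I agonist and 61.4 CPM in CT26 with control agonist, against 134 CPM in E0771 with RIG-I agonist and 11.4 CPM in E0771 with control agonist. Of the 31, 14 had a gap that closed, 15 a gap that narrowed and 2 neither. The number of smaller effects was 26 to 41 with 1 library left out, 27 to 47 under the other settings and 39 with the replicate block.

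Ifit1 (ENSMUSG00000034459.8, chromosome 19, 34640871 to 34650009), whose product binds viral RNA that lacks a host cap, shows a closed gap. It was at 612, 642 and 660 CPM in CT26 with RIG-I agonist, against 69.9, 72.3 and 86.9 CPM with control agonist. In E0771 it was at 523 and 610 CPM with RIG-I agonist, against 15.2 and 8.9 CPM with control agonist. The RIG-I agonist groups of the lines nearly meet, while the control agonist groups are far apart. The rise was 8.36-fold in CT26 and 46.9-fold in E0771, a difference of -2.49 on the log2 scale (SE 0.26, adjusted p = 0.00125, edgeR). The control gap was 2.66, and the agonist gap 0.17 with a 95% interval of -0.21 to 0.55.

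Oas2 (ENSMUSG00000032690.16, chromosome 5, 120730333 to 120749853), which makes the oligoadenylates that activate RNase L, behaved the same way. Its level was 224, 206 and 207 CPM in CT26 with RIG-I agonist and 82.1, 75.6 and 74.5 CPM with control agonist. E0771 had 146 and 192 CPM with RIG-I agonist and 5.81 and 1.75 CPM with control agonist. The RIG-I agonist values of both lines lay within a 2-fold range, and the control values did not. The difference was -4.01 (SE 0.4, adjusted p = 0.0019, edgeR), made of a control gap of 4.34 and an agonist gap of 0.33. With RIG-I agonist every CT26 library still lay above both E0771 libraries. By voom with a spread per group the agonist gap was 0.34 and called (adjusted p = 0.0477). Oasl2, Trim30a and Parp12 were of this kind as well, with control gaps of 3.66, 3.19 and 1.06 and agonist gaps of 0.43, 0.48 and -0.27; they were picked after their values were seen.

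In Isg15 the gap narrowed without closing. Isg15 (ENSMUSG00000035692.6, chromosome 4, 156199424 to 156200818) is a ubiquitin-like modifier attached to many proteins in infected cells. It was at 891, 952 and 891 CPM in CT26 with RIG-I agonist and at 183, 208 and 227 CPM with control agonist, against 418 and 419 CPM in E0771 with RIG-I agonist and 19.8 and 9.85 CPM with control agonist. CT26 lay above E0771 with either agonist, by a log2 gap of 1.12 with RIG-I agonist and 3.8 with control agonist, and the difference was -2.67 (SE 0.3, adjusted p = 0.00237, edgeR). With the replicate block its agonist gap was 0.83 and no longer called (adjusted p = 0.0582). Ifit3 (difference -2.79) and Phf11d (difference -4.04) also narrowed, with agonist gaps of 2.08 and 2.39 and control gaps of 4.87 and 6.43.

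**Figure D4:**
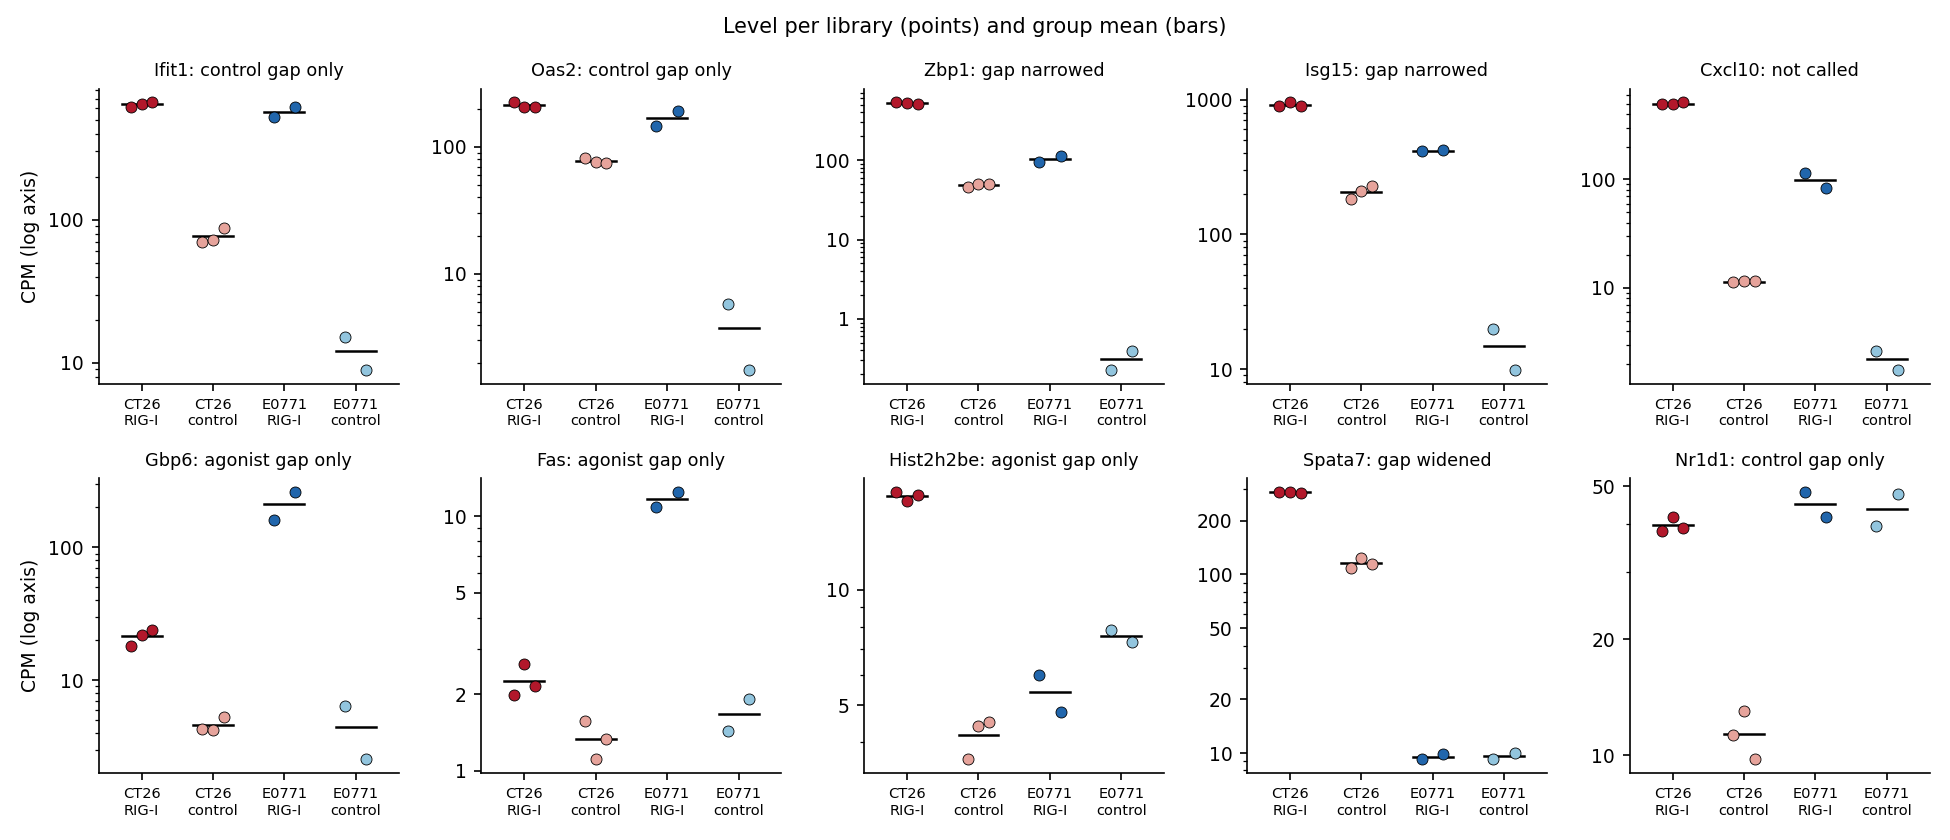
Level of 10 genes in each of the 10 libraries (points) with the group mean (bars), in CPM on a log axis, in CT26 with RIG-I agonist, CT26 with control agonist, E0771 with RIG-I agonist and E0771 with control agonist. Ifit1 and Oas2 lie within a 2-fold range with RIG-I agonist and stand apart with control agonist. Gbp6 and Fas part with RIG-I agonist, Hist2h2be and Spata7 rise in CT26 and not in E0771, and Nr1d1 starts lower in CT26.

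Rsad2, which encodes viperin, an enzyme that makes a chain-terminating nucleotide, did not follow these genes. It was at 262, 260 and 272 CPM in CT26 with RIG-I agonist and at 17.7, 15.6 and 15.8 CPM with control agonist, against 648 and 868 CPM in E0771 with RIG-I agonist and 24.2 and 12.5 CPM with control agonist. E0771 reached the higher level, and the control values of the lines overlapped. The difference of -1.35 (SE 0.31) was not called by edgeR (adjusted p = 0.0715). It was called in voom with a spread per group (adjusted p = 0.0305), in DESeq2 (0.000444) and in the fit of 14 libraries (0.0141). The difference was -1.54 without E0771 RIG-I agonist replicate 1 and -1.91 without E0771 control agonist replicate 1.

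Interferon-inducible GTPases, which attack the membranes around intracellular pathogens, had the largest median difference of the lists shown with at least 10 tested members. Of 18 tested, 14 had a smaller effect in CT26, against 1.13% of all genes tested, and none a larger one. The median difference was -3.3, with a median effect of 2.72 in CT26 and 5.56 in E0771. The median gap was 1.09 with RIG-I agonist and 4.09 with control agonist. In 6 the gap closed, in 7 it narrowed, and in 1, Gbp6, it opened in favour of E0771. The count was 11 to 16 with 1 library left out and 12 with the replicate block. Members of the Gbp and Tgtp families are near-identical, and estimated counts divide reads among them, so values of single members are uncertain.

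Gbp2 was at 634, 655 and 636 CPM in CT26 with RIG-I agonist and at 56.1, 59.4 and 64.3 CPM with control agonist. In E0771 it was at 224 and 180 CPM with RIG-I agonist and at 3.25 and 2.62 CPM with control agonist. No group overlapped another, and the gap was 1.67 with RIG-I agonist against 4.35 with control agonist (difference -2.68, SE 0.19, adjusted p = 0.000112, edgeR). Tgtp2, another of these GTPases, was at 84.2, 80.7 and 71.5 CPM in CT26 with RIG-I agonist and at 16.6, 17.4 and 19.9 CPM with control agonist. In E0771 it was at 14.6 and 20.2 CPM with RIG-I agonist and at 0 in both control libraries. Against a floor of 3 counts over the control group its rise in E0771 was at least 151-fold, while the fitted rise in CT26 was 4.39-fold.

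Gbp6 (ENSMUSG00000104713.4, chromosome 5, 105270702 to 105293698) was the exception. It was at 18.2, 21.9 and 24.1 CPM in CT26 with RIG-I agonist and at 4.29, 4.19 and 5.26 CPM with control agonist, against 161 and 263 CPM in E0771 with RIG-I agonist and 6.42 and 2.54 CPM with control agonist. The control groups overlapped, and with RIG-I agonist E0771 stood well above CT26. The difference was -3.33 (SE 0.46, adjusted p = 0.0103, edgeR) with a control gap of 0.02 and an agonist gap of -3.31. The call was lost with a spread per group (adjusted p = 0.0563) and with the replicate block (adjusted p = 0.102). Its near-identical relative Gbp10, read off after its values were seen, had an agonist gap of 0.77 and a control gap of 4.15, and how reads were divided between the 2 genes was not tested.

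The cytosolic DNA sensing list, with many genes of the Ifi200 family, held further smaller effects. Of 14 tested, 6 had a smaller effect in CT26, against 1.13% of all genes tested, and none a larger one. Ifi205 and Ifi211 closed their gap, and Ifi207, Ifi203, Ifi204 and Mndal narrowed it. The median difference was -2.02, or -1.26 with genes at 0 in a group set to their bound. Ifi205 was at 28.8, 31.1 and 29.6 CPM in CT26 with RIG-I agonist and at 2.26, 2.46 and 3.27 CPM with control agonist, against 35.4 and 34.5 CPM in E0771 with RIG-I agonist and 0.377 and 0.0794 CPM with control agonist. E0771 reached the slightly higher level from controls at or under a few counts (difference -3.73, SE 0.42, adjusted p = 0.00193, edgeR). This is another family of near-identical genes.

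Of 20 genes of RNA sensing and its adaptors, 5 had a smaller effect in CT26, against 1.13% of all genes tested. These were Ddx60, Dhx58 and Ifih1, whose gap closed, and Zbp1 and Irf7, whose gap narrowed. Dhx58 and Ifih1 lost the call with the replicate block (adjusted p = 0.118 and 0.0652) and without any of the 6 CT26 libraries (adjusted p up to 0.0801 and 0.0979), and Ifih1 also without E0771 RIG-I agonist replicate 2 (0.0585). The receptor of the agonist itself, RIG-I, encoded by Ddx58, was at 410, 386 and 392 CPM in CT26 with RIG-I agonist and at 146, 140 and 156 CPM with control agonist, against 226 and 233 CPM in E0771 with RIG-I agonist and 63 and 34 CPM with control agonist. CT26 held the higher level with either agonist, although the agonist gap was not called with the replicate block (0.61, adjusted p = 0.126). The difference of -0.81 was not called in edgeR (SE 0.27, adjusted p = 0.219), but was in DESeq2 (adjusted p = 0.0498). Without E0771 control agonist replicate 1 the difference was -1.33. The adaptor Mavs and the factor Irf3 had differences of -0.03 (95% interval -0.25 to 0.2) and 0.09 (-0.26 to 0.45), and neither was called in either line.

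Zbp1 (ENSMUSG00000027514.14, chromosome 2, 173206612 to 173218923), a sensor of left-handed nucleic acid that can start necroptosis, had the smallest adjusted p of the genes named here. It was at 535, 530 and 512 CPM in CT26 with RIG-I agonist and at 45.4, 49.4 and 50.4 CPM with control agonist. In E0771 it was at 95.4 and 113 CPM with RIG-I agonist and at 0.226 and 0.397 CPM with control agonist, 8 counts over both control libraries. CT26 with control agonist therefore lay nearer to E0771 with RIG-I agonist than to E0771 with control agonist on the log scale. The rise was 10.9-fold in CT26 and 331-fold in E0771 (difference -4.93, SE 0.25, adjusted p = 1.84e-05, edgeR), and the gap was 2.34 with RIG-I agonist and 7.27 with control agonist.

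Ddx60, a helicase that aids RIG-I-like receptors, was at 148, 154 and 140 CPM in CT26 with RIG-I agonist and at 49.6, 50.2 and 58.4 CPM with control agonist, against 92 and 155 CPM in E0771 with RIG-I agonist and 4.38 and 2.78 CPM with control agonist. With RIG-I agonist the lines overlapped, with an agonist gap of 0.25 beside a control gap of 3.87 (difference -3.62, SE 0.33, adjusted p = 0.000877, edgeR). Without E0771 RIG-I agonist replicate 2 the agonist gap was 0.68. Irf7, the factor that amplifies interferon production, was at 1020, 1066 and 1046 CPM in CT26 with RIG-I agonist and at 184, 191 and 180 CPM with control agonist, against 463 and 451 CPM in E0771 with RIG-I agonist and 13.8 and 7.78 CPM with control agonist. Every CT26 library exceeded every E0771 library given the same agonist (difference -2.9, SE 0.24, adjusted p = 0.000279, edgeR).

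Among interferon receptors, Janus kinases, STAT, IRF and SOCS genes, 4 of 20 had a smaller effect in CT26, against 1.13% of all genes tested. None had a larger one, and the median difference was -0.11. Irf1, a transcription factor induced by interferon, rose 1.58 in CT26 and 2.37 in E0771 on the log2 scale. Usp18, the protease that removes ISG15 and damps the interferon receptor, rose 2.14 in CT26 and 4.97 in E0771. For Irf1 the gap in favour of CT26 was 0.49 with RIG-I agonist (95% interval 0.29 to 0.69) and 1.28 with control agonist, so CT26 still stood above E0771. For Usp18 it was 0.33 with RIG-I agonist (-0.16 to 0.82) and 3.16 with control agonist. Usp18 lost the call with the replicate block (adjusted p = 0.0735), and Irf1 with a spread per group (0.062) and without E0771 control agonist replicate 2 (0.0526). The difference was not called for Irf9 (-0.3, 95% interval -0.73 to 0.13), nor for the feedback inhibitor Socs1 (0.38, interval 0 to 0.76). Without E0771 control agonist replicate 1 the difference of Irf9 was -0.65.

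The interferon genes themselves gave no called difference. Ifnb1 was at 109, 112 and 115 CPM in CT26 with RIG-I agonist and at 0.0572, 0.103 and 0.266 CPM with control agonist, against 12.7 and 13.3 CPM in E0771 with RIG-I agonist and 0.0755 and 0 CPM with control agonist. CT26 reached the higher level, with an agonist gap of 3.11 (adjusted p = 5.78e-08, edgeR), while the control level of both lines lay at or near the floor. In E0771 Ifnb1 had 360 counts with RIG-I agonist and 1 with control agonist, a ratio of 336 with an exact 95% counting interval of 60 to 13314. The difference of effects, 1.33, therefore had an SE of 1.73 (adjusted p = 0.837), and a difference was not detectable at this depth. Ifna4 had 2220 counts against 1 in CT26, a ratio of 2308 (interval 414 to 91219), and 129 against 0 in E0771, at least 40.2-fold. Of 4 interferon genes tested, none was called by edgeR, DESeq2 or voom, and none had an unadjusted p under 0.05.

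Chemokines draw T cells, NK cells and myeloid cells to a site. They were called higher for 10 of 17 tested in CT26 and 7 in E0771, against 9.45% and 4.41% of all genes tested. None had a called difference in edgeR and 3 had an unadjusted p under 0.05; DESeq2 and voom called 1 each and the replicate block 2. Cxcl10, a ligand of CXCR3 on T cells, was at 497, 492 and 513 CPM in CT26 with RIG-I agonist and at 11.3, 11.6 and 11.5 CPM with control agonist, against 115 and 83.6 CPM in E0771 with RIG-I agonist and 2.64 and 1.75 CPM with control agonist. Both groups of CT26 stood above those of E0771 by a similar factor. The rise was 43.7-fold in CT26 and 45.1-fold in E0771, with a difference of -0.04 and a 95% interval of -0.57 to 0.48, and the gap was 2.33 with RIG-I agonist and 2.38 with control agonist.

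Ccl5 rose 6.43 in CT26 and 5.56 in E0771 on the log2 scale; its difference of 0.87 was called with the replicate block (adjusted p = 0.0269) and not in edgeR without it (0.266). Cxcl1, a neutrophil attractant, was at 121, 132 and 127 CPM in CT26 with RIG-I agonist and at 1.97, 2.51 and 1.97 CPM with control agonist, against 0.15 and 0.209 CPM in E0771 with RIG-I agonist and 0 and 0.0794 CPM with control agonist. It lay under the floor of 1 library in every E0771 library, so its difference of 3.78 (SE 1.59, adjusted p = 0.448) could not be resolved at that depth. Cd274, the checkpoint ligand PD-L1, and Mx1, a GTPase that restricts influenza, had differences of -0.05 (95% interval -0.57 to 0.47) and -0.18 (-1.08 to 0.71).

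Of 28 MHC class I and antigen processing genes, 25 were called higher with RIG-I agonist in CT26 and 21 in E0771, against 9.45% and 4.41% of all genes tested. The effect was smaller in CT26 for 4 and larger for H2-T24, against 1.13% and 0.478% of all genes. H2-T24 lost that call without any 1 of the 6 CT26 libraries or E0771 control agonist replicate 2 (adjusted p = 0.0521 to 0.0693) and with a spread per group (0.0772). The median difference was -0.53, with median effects of 1.43 in CT26 and 1.94 in E0771. The count of smaller effects ran from 1 to 12 with 1 library left out and was 13 with the replicate block. Psmb10, a subunit of the immunoproteasome, was at 218, 234 and 219 CPM in CT26 with RIG-I agonist and at 40.6, 51.9 and 47.2 CPM with control agonist, against 193 and 158 CPM in E0771 with RIG-I agonist and 16.5 and 12.9 CPM with control agonist. Its control gap of 1.66 became an agonist gap of 0.35 (difference -1.3, SE 0.19, adjusted p = 0.00749, edgeR). Tap1, the peptide transporter, had a difference of -0.9 (SE 0.21, adjusted p = 0.064, edgeR). It was called with the replicate block (0.0034), DESeq2 (0.000875), voom (0.0468), the fit of 14 libraries (0.0101) and no filter (0.0243). H2-K1, a heavy chain, was not called either (-1.12, adjusted p = 0.168) but was with the block (0.014), DESeq2 (0.0123) and 14 libraries (0.0485). B2m, the light chain, was not called (-0.61, adjusted p = 0.484) but was with the block (0.0115). Without E0771 control agonist replicate 1 the differences were -1.24 for Tap1, -1.76 for H2-K1 and -1.18 for B2m. CT26 carries BALB/c alleles and the reference is C57BL/6, so levels of H2 genes, and gaps more than effects, are uncertain between these lines.

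Among the genes with a smaller effect in CT26, a small set had a gap in favour of E0771 that opened or widened with RIG-I agonist. Fas (ENSMUSG00000024778.12, chromosome 19, 34290666 to 34327772), the death receptor, was at 1.99, 2.62 and 2.15 CPM in CT26 with RIG-I agonist and at 1.57, 1.11 and 1.33 CPM with control agonist, against 10.9 and 12.5 CPM in E0771 with RIG-I agonist and 1.43 and 1.91 CPM with control agonist. The control groups overlapped, and the RIG-I agonist group of E0771 stood alone. The rise was 1.69-fold in CT26 and 6.99-fold in E0771 (difference -2.05, SE 0.34, adjusted p = 0.013, edgeR; 0.0718 with a spread per group), with an agonist gap of -2.37 and a control gap of -0.32. Of 33 programmed cell death genes, 2 had a smaller effect in CT26, Fas and the pore-forming Gsdmd, against 1.13% of all genes tested, and none a larger one. With the replicate block 4 were smaller and 1 larger. The median difference was -0.03. Mlkl, the executioner of necroptosis, rose 1.06 in CT26 and 1.05 in E0771 on the log2 scale, a difference of 0 with a 95% interval of -0.45 to 0.46.

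NF-kB subunits, inhibitors and targets had differences mostly below 0, in 22 of 24 members, against 47.6% of all genes tested. The effect was smaller in CT26 for 4 of 24 and larger for none, while 1.13% of all genes had a smaller one. The count of 4 was 2 to 6 with 1 library left out and 12 with the replicate block. Tnip1, a partner of the inhibitor A20, was at 17.6, 20.4 and 19.7 CPM in CT26 with RIG-I agonist and at 16.1, 16.4 and 15.2 CPM with control agonist, against 152 and 113 CPM in E0771 with RIG-I agonist and 46.2 and 45 CPM with control agonist. E0771 lay above CT26 with either agonist, and the gap widened, at -2.78 with RIG-I agonist against -1.52 with control agonist (difference -1.26, SE 0.17, adjusted p = 0.00574, edgeR). Relb, a subunit of the non-canonical branch, was at 39.9, 44.5 and 43 CPM in CT26 with RIG-I agonist and at 26.5, 24.4 and 21.7 CPM with control agonist, against 76.5 and 66.5 CPM in E0771 with RIG-I agonist and 19.6 and 18.9 CPM with control agonist. The order of the lines changed between the agonists, although neither gap reached 2-fold (difference -1.08, SE 0.15, adjusted p = 0.0061, edgeR). The control gap of 0.33 was not called with the replicate block (adjusted p = 0.0675), with a spread per group (0.129), or without CT26 control agonist replicate 1 (0.0847), E0771 control agonist replicate 1 (0.0607) or E0771 control agonist replicate 2 (0.103). Nfkbia, the inhibitor IkB-alpha, rose 2.09 in CT26 and 2.18 in E0771, a difference of -0.08 (95% interval -0.8 to 0.63).

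Of 20 p53 targets, 2 had a smaller effect in CT26, Cdkn1a and Trp53inp1, against 1.13% of all genes tested. With the replicate block 4 had a smaller and 1 a larger effect. Cdkn1a, the cell cycle inhibitor p21, was at 238, 243 and 250 CPM in CT26 with RIG-I agonist and at 230, 222 and 216 CPM with control agonist, against 137 and 148 CPM in E0771 with RIG-I agonist and 55.8 and 50.9 CPM with control agonist. It was called higher in E0771 (2.67-fold) and not in CT26 (1.1-fold, adjusted p = 0.221), where the control level already exceeded every E0771 library (difference -1.28, SE 0.11, adjusted p = 0.000312, edgeR). Trp53inp1 lost its call in 8 of the alternatives, among them 6 of the 10 fits without 1 library.

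Among the larger effects, several genes reached a higher level in CT26 with RIG-I agonist. Hist2h2be (ENSMUSG00000068854.7, chromosome 3, 96221119 to 96223738), a histone H2B gene that can give polyadenylated transcripts, was at 18, 17 and 17.6 CPM in CT26 with RIG-I agonist and at 3.61, 4.4 and 4.52 CPM with control agonist, against 6 and 4.81 CPM in E0771 with RIG-I agonist and 7.85 and 7.31 CPM with control agonist. CT26 stood below E0771 with control agonist and above it with RIG-I agonist. The difference was 2.56 (SE 0.21, adjusted p = 0.000283, edgeR), with an agonist gap of 1.7 and a control gap of -0.86. Hist1h2bc, at a difference of 1.74 (adjusted p = 0.0391), lost its call in 9 of the alternatives, 7 of them fits without 1 library. Most histone transcripts lack a poly(A) tail, and near-identical histone genes share reads, so these levels are uncertain.

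Spata7 (ENSMUSG00000021007.14, chromosome 12, 98628157 to 98669815), a gene of the photoreceptor cilium, was at 288, 291 and 287 CPM in CT26 with RIG-I agonist and at 109, 123 and 115 CPM with control agonist, against 9.22 and 9.84 CPM in E0771 with RIG-I agonist and 9.28 and 10 CPM with control agonist. The E0771 groups overlapped and those of CT26 lay far apart. The rise was 2.49-fold in CT26 and the level in E0771 was 0.989-fold that with control agonist, a difference of 1.33 (SE 0.13, adjusted p = 0.000611, edgeR), and the gap was 4.92 with RIG-I agonist and 3.59 with control agonist. Cfb, complement factor B, was at 23.2, 23.3 and 20.1 CPM in CT26 with RIG-I agonist and at 3.18, 3.03 and 2.47 CPM with control agonist, against 6.6 and 5.58 CPM in E0771 with RIG-I agonist and 3.09 and 2.62 CPM with control agonist. Here the control groups overlapped and both lines rose, CT26 further (7.67-fold against 2.12-fold; difference 1.85, SE 0.24, adjusted p = 0.00387, edgeR; 0.0979 with a spread per group).

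Immediate early genes, many of which encode transcription factors, are induced within minutes of a signal, while RNA was taken here after 24 h. They had 4 larger effects in CT26 among 21 tested, against 0.478% of all genes tested, and no smaller one. With 1 library left out 2 to 5 were larger and up to 1 smaller, and with the replicate block 9 were larger and 2 smaller. The median difference was 0.34, or 0.59 with genes at 0 in a group set to their bound. Ier5 was at 75, 81.2 and 76.2 CPM in CT26 with RIG-I agonist and at 28.7, 26.9 and 25.9 CPM with control agonist, against 130 and 99.8 CPM in E0771 with RIG-I agonist and 99.4 and 105 CPM with control agonist. It began lower in CT26 and ended closer, with a gap of -0.57 with RIG-I agonist and -1.91 with control agonist (difference 1.34, SE 0.15, adjusted p = 0.002, edgeR). Ier2 took the other route: its means were 104 CPM in CT26 with RIG-I agonist and 43.3 CPM with control agonist, against 34 CPM in E0771 with RIG-I agonist and 35.8 CPM with control agonist, a difference of 1.33 (adjusted p = 0.000396, edgeR) from an agonist gap of 1.61. Ier2 was chosen after its values were seen. Egr1 was at 413 to 484 CPM in CT26 with RIG-I agonist and at 67.6 to 71.4 CPM with control agonist, but at 0.075 to 1.19 CPM in all 4 E0771 libraries (difference 3.73, SE 0.64, adjusted p = 0.0185, edgeR). Its call was lost with a spread per group (adjusted p = 0.109), without CT26 RIG-I agonist replicate 2 (0.0501) and without E0771 control agonist replicate 2 (0.149).

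Zfp36, which destabilises cytokine transcripts, rose further in CT26: it was at 60.9, 62.5 and 67.1 CPM with RIG-I agonist and at 12.1, 9.98 and 11 CPM with control agonist, against 39.6 and 25.3 CPM in E0771 with RIG-I agonist and 15.9 and 14.5 CPM with control agonist (difference 1.44, SE 0.23, adjusted p = 0.013, edgeR). The order of the lines changed with the agonist. Il33, an alarmin cytokine, was at 2.48, 1.8 and 3.17 CPM in CT26 with RIG-I agonist and at 0.0572, 0.0517 and 0.16 CPM with control agonist, against 0.45 and 0.558 CPM in E0771 with RIG-I agonist and 0.679 and 1.43 CPM with control agonist. It was the 1 called gene of 24 cytokines and growth factors tested, and over all genes tested 0.478% had a larger effect. Of the 24, 11 had an unadjusted p under 0.05, DESeq2 called 3, voom 1, and the replicate block 6 (2 larger and 4 smaller in CT26). The order of the lines reversed for Il33, with a gap of 2.29 with RIG-I agonist and -3.48 with control agonist (difference 5.77, SE 0.74, adjusted p = 0.00384, edgeR). Its levels are low in both lines.

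For mt-Co1, a mitochondrially encoded subunit of the respiratory chain, the difference came from E0771. It was at 10499, 11688 and 10772 CPM in CT26 with RIG-I agonist and at 8168, 8530 and 9964 CPM with control agonist, against 2788 and 4559 CPM in E0771 with RIG-I agonist and 9957 and 12304 CPM with control agonist. It was called lower with RIG-I agonist in E0771 (0.33-fold) and not called in CT26 (difference 1.91, SE 0.27, adjusted p = 0.00649, edgeR). The mitochondrial share of all counts, which includes mt-Co1, was 2.85% to 3.19% in CT26 with RIG-I agonist and 2.44% to 2.88% with control agonist. In E0771 it was 0.81% and 2.21% with RIG-I agonist and 2.82% and 5.8% with control agonist. The part of that share in the result was not tested.

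Some larger effects started from a lower control level in CT26. Nr1d1 (ENSMUSG00000020889.11, chromosome 11, 98767932 to 98775333), the circadian repressor REV-ERB-alpha, was at 38.2, 41.7 and 39 CPM in CT26 with RIG-I agonist and at 11.3, 13 and 9.76 CPM with control agonist, against 48.4 and 41.5 CPM in E0771 with RIG-I agonist and 39.5 and 47.7 CPM with control agonist. CT26 reached about the level that E0771 held with either agonist. The difference was 1.76 (SE 0.19, adjusted p = 0.00125, edgeR), from a control gap of -1.94, and the agonist gap was -0.18. Krt16, a stress keratin, was at 15.1, 14.4 and 14.4 CPM in CT26 with RIG-I agonist, against a total of 1 count in the CT26 control libraries, a count ratio of 1627 (exact 95% interval 292 to 64317). In E0771 Krt16 was at 16.6 and 9.77 CPM with RIG-I agonist and at 2.49 and 0.715 CPM with control agonist, an 8.12-fold rise, so the lines overlapped with RIG-I agonist. Slc2a3, a glucose transporter, narrowed its gap: 2.81, 3.57 and 2.55 CPM in CT26 with RIG-I agonist and 0.687, 0.983 and 0.452 CPM with control agonist stood against 32.4 and 37.1 CPM in E0771 with RIG-I agonist and 31.8 and 36.6 CPM with control agonist.

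Glycolysis and hypoxia genes had smaller effects of another kind, being lower with RIG-I agonist in CT26. Of 32 tested, 18 were called lower in CT26, against 6.87% of all genes tested, and none in E0771, against 2.84%. For E0771, none of 32 is near the share of all genes. The median effects were -0.51 in CT26 and 0 in E0771. The difference was called smaller for 4, Ero1l, Pdk1, P4ha1 and P4ha2, and larger for Slc2a3, against 1.13% and 0.478% of all genes. The smaller effects numbered 1 to 7 with 1 library left out and 21 with the replicate block. Of the 32 differences 29 lay below 0 (90.6%), against 47.6% of all genes. Pdk1, the kinase that holds pyruvate out of the mitochondrion, was at 63.6, 71.2 and 62.8 CPM in CT26 with RIG-I agonist and at 153, 130 and 158 CPM with control agonist, against 98.1 and 116 CPM in E0771 with RIG-I agonist and 119 and 120 CPM with control agonist. It fell to 0.447 of its control agonist level in CT26 and stood at 0.9 of it in E0771, where it was not called (difference -1.01, SE 0.15, adjusted p = 0.00881, edgeR). Ero1l lost its call without CT26 control agonist replicate 1 (adjusted p = 0.0524) and without E0771 control agonist replicate 2 (0.0514).

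10 genes with a called difference were lower in CT26 and higher in E0771 with RIG-I agonist. Daam1, a formin that builds actin filaments, was at 17.8, 18.8 and 18.8 CPM in CT26 with RIG-I agonist and at 31.3, 23.4 and 25.8 CPM with control agonist, against 70.2 and 78.2 CPM in E0771 with RIG-I agonist and 48.8 and 47.7 CPM with control agonist. The agonist and control agonist groups did not overlap in either line (difference -1.16, SE 0.17, adjusted p = 0.00656, edgeR). Dhrs9, a retinol dehydrogenase, was at 35.1, 36.7 and 34.9 CPM in CT26 with RIG-I agonist and at 58.7, 58 and 64.4 CPM with control agonist, against 13 and 20.7 CPM in E0771 with RIG-I agonist and 9.51 and 8.9 CPM with control agonist (difference -1.64, SE 0.23, adjusted p = 0.00574, edgeR). It began higher in CT26 and the gap narrowed, to 1.08 with RIG-I agonist against 2.71 with control agonist. The reverse, higher in CT26 and lower in E0771, was called for 2 genes.

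Lists on growth and housekeeping gave no called difference in edgeR. For 41 cell cycle genes the median difference was 0.14, 8 had an unadjusted p under 0.05, and DESeq2 called 3, voom none and the replicate block 4. Of 25 genes of MYC and ribosome biogenesis 1 had an unadjusted p under 0.05 (DESeq2 and voom called none, the block 1). None of 32 nuclear-encoded oxidative phosphorylation genes had an unadjusted p under 0.05, and none was called by DESeq2, voom or the block. For 10 heat shock genes the median was 0.1, with 1 at an unadjusted p under 0.05 (DESeq2 1, voom none, the block 1). Cholesterol biosynthesis genes had a median effect of 0.01 in CT26 and -0.54 in E0771, and 23 of 25 had a difference above 0, but none was called by edgeR, DESeq2 or voom, none had an unadjusted p under 0.05, and the block called 10.

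**Figure D5:**
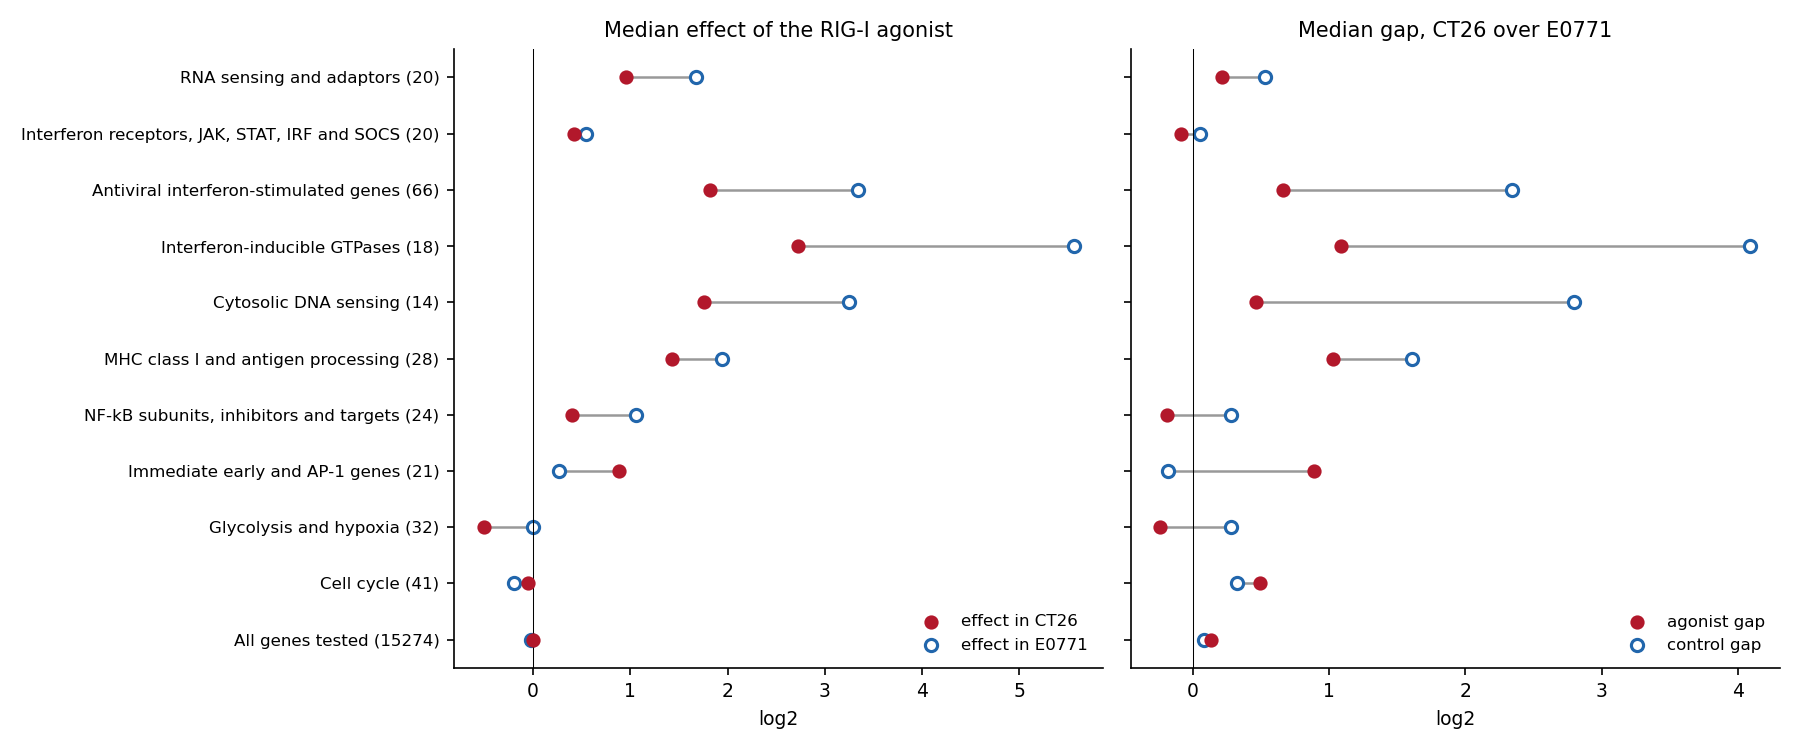
Median effect of the RIG-I agonist per gene list in CT26 and E0771 (left) and median gap between the lines with RIG-I agonist and with control agonist (right), on the log2 scale. In antiviral genes, GTPases and DNA sensing genes the effect is smaller in CT26, and the control gap exceeds the agonist gap. For the cell cycle list both median effects lie near 0.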

How the data were processed

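Poly(A)-selected stranded libraries of CT26 and E0771 cells were analysed. The authors deposited estimated counts per gene, 1 table per line with 34866 Ensembl identifiers. Salmon, DESeq2 and the GRCm38 build are named, without roles, per the submitters' processing notes. The annotation and software versions the authors used are not given in the sources used here. Identifiers were matched to GENCODE M21 (32644 exactly, 2008 without the version, 214 not at all). Between 69.05% and 85.35% of values per library were exactly whole; all were rounded before testing.

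The 10 libraries were fitted together as 4 groups with edgeR 4.0.16 (R 4.3.3, limma 3.58.1): quasi-likelihood F test with robust dispersions, TMM normalization, filterByExpr at a minimum count of 10, a prior count of 0.125, and Benjamini-Hochberg adjustment over 15274 genes, called under 0.05. CPM use TMM-scaled sizes. The spread is shared, so p-values can be too small for E0771 and too large for CT26. No 2 libraries of a group agreed within sampling noise (chi-square per degree of freedom of 7.7 or more). Where a group held 0 counts, folds are bounds from 3 counts over the group; with 1 to 3 counts, the count ratio carries an exact 95% interval. Both cover no error other than that of counting.

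Groups and replicate numbers came from the sample titles. The deviations of same-numbered libraries correlated at 0.133, 0.127 and 0.332 in CT26 and 0.408 in E0771. The numbers were taken as a possible pairing, and the replicate block was run as an alternative. The main fit holds no such block, so its p-values take no account of a pairing. Replicates 1 and 2 of CT26 correlated as well across numbers (0.123 and 0.142), and with 2 numbers E0771 gives a single correlation.

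Named genes were a fixed set of response genes, up to 6 genes per kind of gap and direction with the largest called difference, up to 2 called members per list, and 6 genes called in opposite directions; others are marked as chosen after their values were seen. Some named items are not reported here. The members, lists and rules were chosen with earlier results of these data known. DESeq2 1.42.0, voom with a spread per group, RLE size factors, all 14 libraries, other filters, CT26 thinned to E0771 depth, another prior count, other gap sizes, the replicate block and leaving out each library were alternatives. Lines were deposited in separate tables with separate strains and depths, which a gap between them cannot tell apart.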

Additional observations from a re-analysis of the deposited data

Results flagged for a closer look

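The effect of the RIG-I agonist differed between the lines, by the test of the difference itself (edgeR, adjusted p under 0.05), in 73 genes with a larger and 172 with a smaller effect in CT26.

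With RIG-I agonist, 10 genes with a called difference were called lower in CT26 and higher in E0771, and 2 the other way round. The 6 with the largest fitted differences, among those averaging at least 5 CPM in 1 or more groups and bearing no provisional name, were all lower in CT26 and higher in E0771. Their differences of effects on the log2 scale were -4.36 for Smpdl3b, -2.65 for P2rx3, -1.71 for Adhfe1, -1.64 for Dhrs9, -1.48 for Sema5a and -1.16 for Daam1. The fitted value of Smpdl3b, a sphingomyelinase-like enzyme, depends on the prior count (-1.37 with a prior count of 2), since it rests on 0 counts in CT26 with RIG-I agonist and 7 with control agonist. With CT26 set to a floor of 3 counts over the group, its difference was -1.65, so its place among the 6 is not settled, and it lost the call without each CT26 library in turn (adjusted p = 0.0607 to 0.136) and with CT26 thinned to the E0771 depth (0.427). P2rx3 lost the call without CT26 RIG-I agonist replicate 2, CT26 control agonist replicate 1, E0771 RIG-I agonist replicate 2 and E0771 control agonist replicate 2 (adjusted p = 0.0501, 0.0507, 0.111 and 0.0791). Sema5a lost it without CT26 RIG-I agonist replicate 1 or 2, E0771 RIG-I agonist replicate 1 and E0771 control agonist replicate 2 (0.0609, 0.0598, 0.0816 and 0.116). P2rx3 and Sema5a also lost it with a spread per group (0.404 and 0.394).

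In MC38, a C57BL6 colon adenocarcinoma line outside this comparison, Ifnb1 averaged 3.46 CPM with RIG-I agonist (3.35 and 3.56) and 0.0751 CPM with control agonist (0 and 0.15). Zbp1 averaged 264 CPM in MC38 with RIG-I agonist (266 and 262) and 22 CPM with control agonist (22.2 and 21.7), which places the MC38 controls between those of CT26 and E0771.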

How the results depend on the processing

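Larger and smaller effects numbered 193 and 430 with DESeq2, 32 and 103 with voom and a spread per group, 156 and 412 with all 14 libraries, and 521 and 682 with the replicate block. With 1 library left out they ran from 24 to 122 and from 102 to 283. Genes higher in CT26 numbered 2625 with voom and 2531 with the replicate block, against 1444; genes lower numbered 1730 (DESeq2), 2416 (voom), 1983 (14 libraries) and 2476 (block), against 1050. In E0771, 360 (voom) and 1252 (block) were higher, against 673, and 709 (DESeq2), 62 (voom) and 1463 (block) lower, against 434. With 1 library left out these 4 counts ran from 849 to 1779, 403 to 1593, 463 to 803 and 190 to 594. The control gaps that closed or narrowed numbered 214 (DESeq2), 73 (voom), 206 (14 libraries) and 287 (block), and 83 to 169 with 1 library left out. Gaps that opened or widened in favour of CT26 numbered 66, 8, 55 and 160 under those 4 settings, 11 at a gap size of 2, and 9 to 48 with 1 library left out. For none of these shifts was the cause tested. The block changed the call of the genes so marked in the report and of Gbp9 (adjusted p = 0.0739), Oas3 (0.0695), Acod1 (0.0118), Casp4 (0.000841), Fos (0.00249), Gapdh (0.0413), H2-D1 (0.00742), Ifi27 (0.0076), Mki67 (0.00607) and Tnfaip3 (2e-06) among the named genes.

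Of the genes called, 241 of 245 were shared with RLE size factors, 239 with DESeq2, 206 with CT26 thinned, and 120 with voom. No called difference of a named gene changed sign under any alternative run. The control gap of Fos was -0.18 and turned to 3.06 without E0771_control replicate 1 (-1.08 without replicate 2), and the agonist gap of Nfkbia was 0.05 and turned to -0.33 with the replicate block; the cause was not tested. Depth limits genes near 0 in E0771, such as Ifnb1 and Cxcl1.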
